A study of Homo sapiens with 22 samples.

Results

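The FOS and JUN genes were described by the open chromatin and CTCF regions deposited around them for HFFc6 fibroblasts and for the stem cell line H1. The 7 genes were FOS, FOSB, FOSL1, FOSL2, JUN, JUNB and JUND. Every region of 4 deposited peak lists that overlapped the RefSeq body of a gene, extended by 50 kb on each side, was taken as a member. This gave 387 of 532810 regions, namely 99 in the HFFc6 ATAC list, 107 in the H1 ATAC list, 90 in the HFFc6 CTCF list and 91 in a CTCF list named for human embryonic stem cells (hESC). A region was called shared if it overlapped the other list for the same target by at least 1 bp, and list-specific otherwise.

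HFFc6 is a subclone of human foreskin fibroblasts immortalised with telomerase, and H1 cells are a line of pluripotent stem cells from a human embryo. No treatment or edit of either line is labelled. ATAC-seq cuts open chromatin with the transposase Tn5, and its lists came from 8 HFFc6 libraries and 2 H1 libraries. The HFFc6 titles pair R1 and R2 with T1 to T4, so some of the 8 may be repeats of 1 preparation. Cut&Tag brings Tn5 to a protein through an antibody. The HFFc6 list for CTCF, the zinc-finger protein that holds chromatin loops, came from 2 libraries taken here as Cut&Tag. Their titles begin HFF1 and end in chip, while their cell line label reads HFFc6. No label describes the hESC-named CTCF list, so its assay, its libraries and whether its cells were H1 are unknown here. Where it is set beside the H1 ATAC list, the cells may be of another embryonic stem cell line. Each list was 1 call for its group with no values per library, so cell lines could not be tested against each other and every difference given here is a difference between lists. Because Tn5 also makes the Cut&Tag signal, cutting in open chromatin without CTCF in the HFFc6 CTCF list was not tested. Another 10 libraries of the series were not analysed here.

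FOS and JUN proteins pair through leucine zippers to form activator protein 1 (AP-1), a dimer that binds a short palindromic DNA site. JUN proteins can pair with each other or with FOS proteins, whereas FOS proteins need a JUN or another partner to bind. Several of these genes are immediate early genes, switched on within minutes of serum or growth factor stimulation without new protein synthesis, and fibroblasts are the cells in which much of this was worked out. AP-1 also takes part in opening enhancers in many differentiated cells.

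The labelled cell types were checked on marker genes by the same windows. All 8 stem cell markers had more H1-only than HFFc6-only ATAC regions, and their starts carried a region in the HFFc6 list for 2 and in the H1 list for 6 of them. Of 8 fibroblast markers, 7 leaned to HFFc6 and 1 to H1, although 7 starts carried a region in each list. Markers of other cell types were counted too. Of 3 endothelial markers 2 leaned to HFFc6 and 0 to H1, of 3 melanocyte markers 1 and 2, of 3 keratinocyte markers 0 and 3, and of 3 blood markers 0 and 2. Region widths differed between lists, with a median of 707 bp in the HFFc6 ATAC list against 301 bp in the H1 ATAC list, and 696 bp in the HFFc6 CTCF list against 496 bp in the hESC-named CTCF list. Fold enrichment below is the peak caller's own deposited value, and it describes a peak only within its list.

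Promoter sequence bears on the regions at the gene starts, and it was available from RefSeq (GRCh38.p14, the build of the lists) for 6 of the 7 genes, all but FOSL1. The bases before 4 starts and a site at the FOSL2 start are shown because the lists placed ATAC or CTCF regions on them and because their motifs differ. Each is written 5′ to 3′ on the strand of transcription. Capitals mark TATAAA in FOS and JUNB, TGACATCA in JUN, TGACGTCA in JUND and TGACTCA in FOSL2. FOS lies at chr14:75278678-75278827 (plus strand), JUN at chr1:58784048-58784197 (minus), JUNB at chr19:12791236-12791485 (plus), JUND at chr19:18281623-18281872 (minus) and the FOSL2 site at chr2:28392852-28392878 (plus).
FOS: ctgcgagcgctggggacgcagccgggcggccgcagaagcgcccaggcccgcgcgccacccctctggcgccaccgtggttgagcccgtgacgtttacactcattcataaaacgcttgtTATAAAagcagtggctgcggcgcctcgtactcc
JUN: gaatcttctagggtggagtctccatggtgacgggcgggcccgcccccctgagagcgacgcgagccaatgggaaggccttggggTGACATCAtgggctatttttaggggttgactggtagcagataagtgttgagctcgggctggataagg
JUNB: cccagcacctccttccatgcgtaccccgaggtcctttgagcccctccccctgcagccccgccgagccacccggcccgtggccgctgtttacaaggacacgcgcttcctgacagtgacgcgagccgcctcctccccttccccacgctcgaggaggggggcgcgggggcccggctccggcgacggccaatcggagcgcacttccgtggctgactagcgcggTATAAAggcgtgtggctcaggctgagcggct
JUND: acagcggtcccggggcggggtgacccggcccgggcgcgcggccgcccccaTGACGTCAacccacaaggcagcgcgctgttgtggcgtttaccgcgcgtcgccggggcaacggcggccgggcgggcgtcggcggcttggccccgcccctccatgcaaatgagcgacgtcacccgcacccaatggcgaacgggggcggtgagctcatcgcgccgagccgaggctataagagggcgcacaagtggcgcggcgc
FOSL2: gccattgtagTGACTCAtctcgggcag

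Motifs were searched by exact letters on both strands of 300-base windows, from 250 bases before to 50 after the start, and a match is a description of letters and not a bound site. The AP-1 site TGANTCA was found in FOSL2, where TGACTCA began at base 5 of the transcript, and in none of the other 5 promoters. It was present in 5.76% of 15811 protein-coding promoters. The cyclic AMP response element TGACGTCA, which differs from an AP-1 site by its spacing and is bound by CREB and ATF factors, was found 200 bases before the JUND start alone, against 2.59% of promoters. TATAAA, the core promoter element that positions the start, began 33, 30 and 31 bases before the starts of FOS, FOSB and JUNB, and 9.64% of promoters held it. JUN, JUND and FOSL2 had no such match. The JUN promoter carried TGACATCA 67 bases before its start. The form TGACNTCA that covers both 8-base sequences was added after the JUN sequence had been seen, overlaps the cyclic AMP response element, and occurred in 7.17% of promoters. GGGCGG, a core sequence for Sp1, was matched 6 times in JUND, 2 times each in JUN and FOSB, 1 time each in FOS and FOSL2, and 0 times in JUNB, against 58.5% of promoters with a match. The serum response element (CArG box) had no match in the 6 windows and was found in 1.21% of promoters. Sequence more than 250 bases before a start was not searched, so an element farther upstream of any of these genes would be missed.

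Regions at the starts were common to all 4 lists for all genes but JUNB. A region lay within 1 kb of the start in all 4 lists for FOS, FOSB, FOSL1, FOSL2, JUN and JUND, or 6 of 7, beside 58.1% of 15811 protein-coding genes with a given start. The RefSeq table gave no start for FOSL1, so either end of its body was used and its region lay at the high-coordinate end. JUNB had a region at its start in both HFFc6 lists and in neither of the other lists, a pattern held by 1.64% of genes. A CTCF region at the start in the HFFc6 list alone was found for 7.8% of genes. An ATAC region at the start in the HFFc6 list alone was found for 4.78% of genes, in the H1 list alone for 8.45%, and in both for 69.4%.

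JUNB encodes a JUN protein that is a weaker activator than JUN in many settings. Its HFFc6 ATAC region was chr19:12791276-12791869, 594 bp wide, with fold enrichment 4.2, −log10 q 199 and a summit 4 bp after the start. The HFFc6 CTCF region at chr19:12791362-12791908 was 547 bp wide, with fold enrichment 3.89, −log10 q 89.6 and its summit 134 bp after the start. The printed JUNB bases, TATAAA included, thus lay partly inside the ATAC region. In H1, the nearest ATAC region lay 1204 bp from the start, at chr19:12789899-12790282, with fold enrichment 7.3. The nearest region of the hESC-named CTCF list lay 1059 bp away, at chr19:12789885-12790427, with fold enrichment 6.8. Both of these upstream regions, and another pair beyond the end of the gene, were shared between the lists, so the start itself was the stretch that differed. A limit of 2 kb took in the upstream regions, and JUNB then had a start region in all 4 lists.

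**Figure D1:**
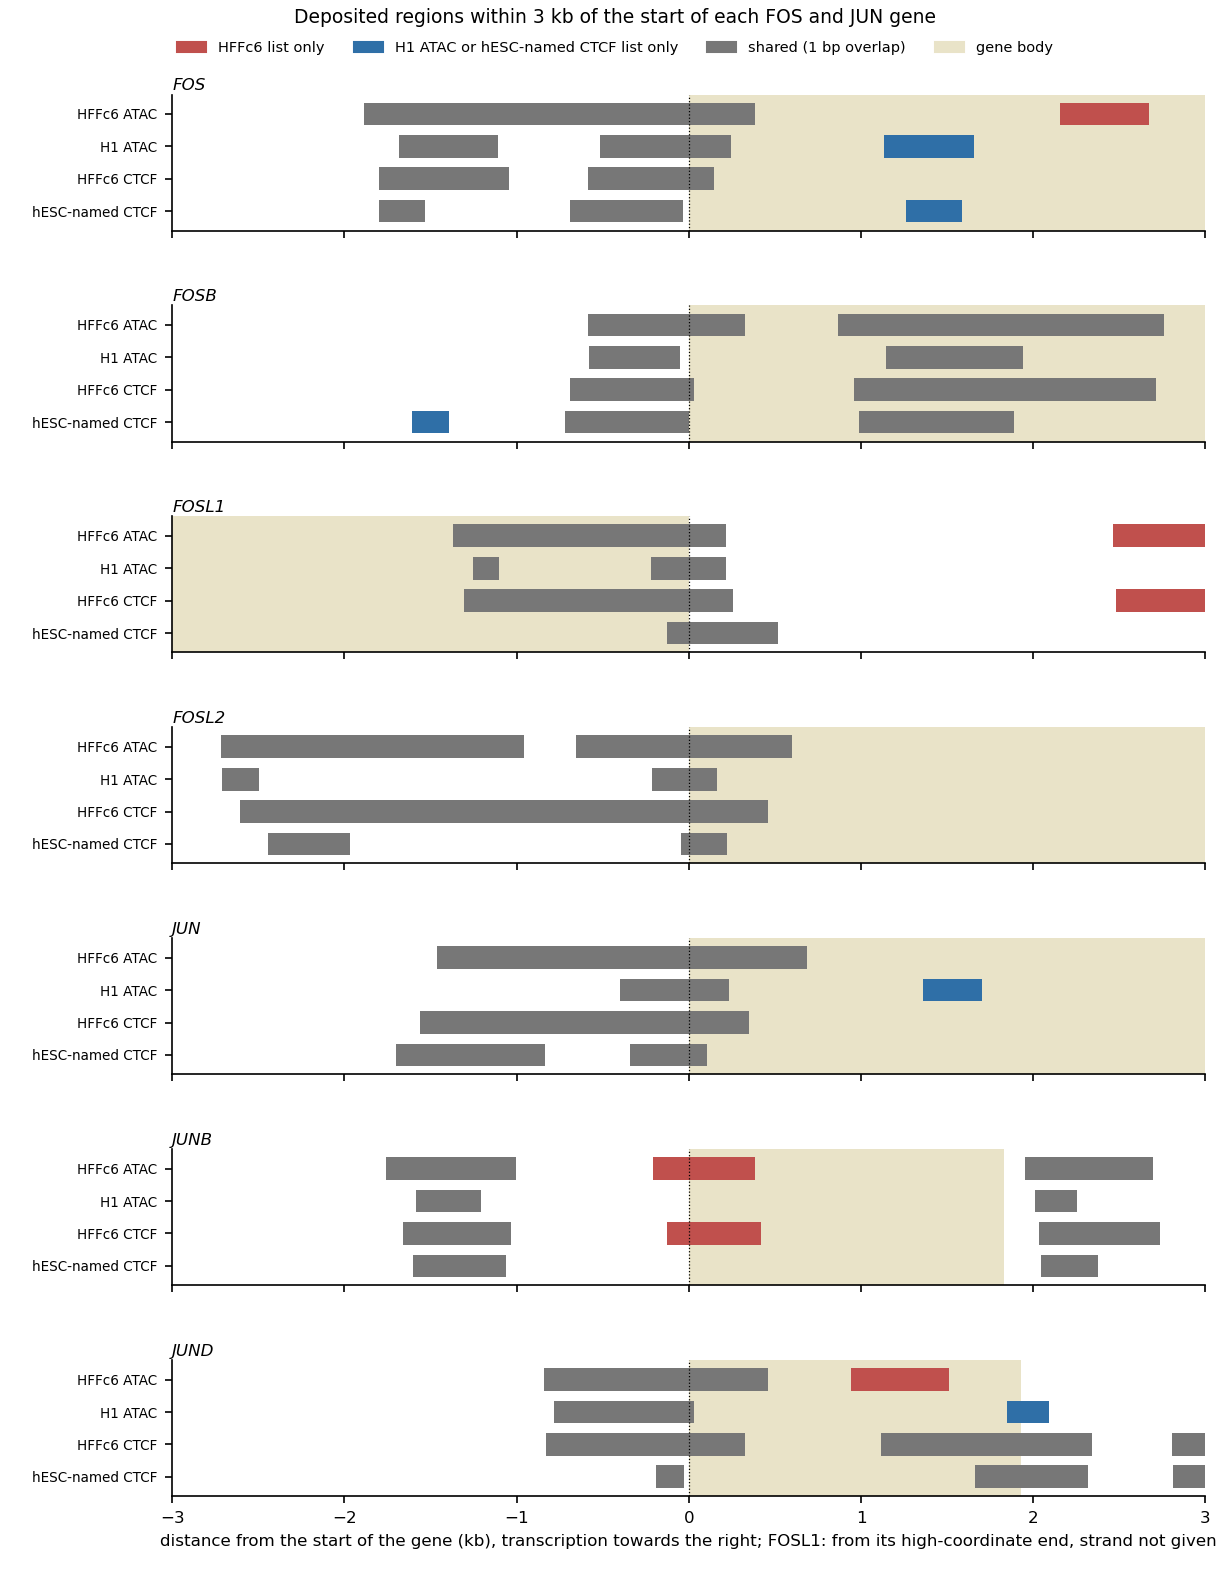
Regions within 3 kb of the start of each gene, 1 row per list, with distance from the start in kb on the x axis and transcription towards the right (for FOSL1, distance from the high-coordinate end). Red bars are HFFc6-only regions, blue bars are H1-only or hESC-only regions, grey bars are shared and the pale block is the gene body. Red bars sit on the JUNB start, where the H1 ATAC and hESC-named CTCF rows have none.

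FOS, whose protein is the partner of JUN in the best-known AP-1 dimer, had a single HFFc6 ATAC region of 2275 bp over its start, with fold enrichment 5.84 and a summit 1600 bp upstream. The H1 ATAC region over the start was 760 bp wide, with fold enrichment 6.5 and a summit 322 bp upstream. A further H1 ATAC region of 578 bp lay under the same HFFc6 region, with fold enrichment 4.36 and a summit 1598 bp upstream, close to the HFFc6 summit. With regions cut to 500 bp around the summit, the HFFc6 region no longer reached the FOS start. In the CTCF lists, the FOS start had a region of 729 bp in HFFc6 (fold enrichment 4.27) and of 655 bp in the hESC-named list (7.97). FOSB, also an immediate early gene, had ATAC regions of 911 bp in HFFc6 (fold enrichment 4.48) and 529 bp in H1 (5.56) next to its start. A further shared HFFc6 ATAC region of 1892 bp began 866 bp into the gene, with fold enrichment 5.13.

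FOSL1, which encodes FRA1, a FOS protein without the long activation domain of FOS, had an ATAC region of 1589 bp in HFFc6 (fold enrichment 8.98) and of 432 bp in H1 (14.8). That H1 region stood in the top 8.54% of the H1 list by fold enrichment. FOSL2, which encodes FRA2, had an ATAC region of 1253 bp in HFFc6 (7.21, summit 45 bp before the start) and of 381 bp in H1 (8.51, summit 30 bp after it). Both contained the AP-1 site printed for FOSL2. The HFFc6 CTCF region over the FOSL2 start was 3069 bp wide (6.96), while the hESC-named region was 269 bp wide with fold enrichment 2.91 and −log10 q 5.97. At a −log10 q of at least 10 this weak region dropped out, leaving FOSL2 with a CTCF region at its start in HFFc6 alone.

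JUN, the founding JUN protein and the stronger activator of the family, had an ATAC region of 2151 bp in HFFc6, with fold enrichment 9.73 and −log10 q 1770. The H1 region there was 637 bp wide, with fold enrichment 12.1 and −log10 q 131. The printed JUN bases lay inside both. CTCF regions of 1908 bp in HFFc6 (fold enrichment 7.32) and 444 bp in the hESC-named list (11.1) covered the same start. JUND, which is kept at a steadier level than the inducible members in many cells, had ATAC regions of 1305 bp in HFFc6 (8.88) and 811 bp in H1 (7.02). Its CTCF regions measured 1160 bp in HFFc6 (5.62) and 165 bp in the hESC-named list (3.44). ATAC regions at the starts were wider in HFFc6 for each of the 6 genes that had one in both ATAC lists, as they were over the lists as a whole.

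Summed over the 7 windows, a smaller share of regions was list-specific than over the windows of all protein-coding genes. In the HFFc6 lists FOSL2 and JUN were not below that share, on few regions each. In the HFFc6 ATAC list, 41 of 99 regions (41.4%, 95% Wilson interval 32.2 to 51.3) were HFFc6-only, against 63.1% in the windows of all 19970 protein-coding genes and 65.3% of the list. In the H1 ATAC list, 37 of 107 (34.6%, 26.2 to 44.0) were H1-only, against 61.8% and 68.2%. For CTCF, 29 of 90 HFFc6 regions (32.2%, 23.5 to 42.4) were HFFc6-only, against 47.7% and 49.1%. The hESC-named list had 23 of 91 regions (25.3%, 17.5 to 35.1) of its own, against 53.9% and 58.7%. In the HFFc6 ATAC list, 13 of 18 FOSL2 regions (72.2%) and 9 of 14 JUN regions (64.3%) were HFFc6-only, beside 63.1% over all windows. The JUN share was thus near that of all windows. The other 5 genes ranged from 6.25% (FOSB) to 50% (FOS). In the HFFc6 CTCF list, JUN (7 of 11, 63.6%) and FOSL2 (4 of 7, 57.1%) lay above the 47.7% over all windows, again on few regions. In the H1 ATAC and hESC-named lists, each of the 7 genes lay below the share over all windows. Of the 99 HFFc6 ATAC regions, 53 had a FOS or JUN gene as the nearest protein-coding start. Each interval covers counting error only, and regions of 1 window are not independent. The HFFc6 share depended on the overlap rule, and 70 regions (70.7%) were HFFc6-only where at least 50% of a region had to be covered. The shares over all windows are given for the 1 bp rule only, so the 70.7% cannot be set beside the 63.1%. When all regions of the 4 lists were merged where they overlapped, the windows held 143 loci, of which 49 (34.3%) were in all 4 lists, 39 (27.3%) in HFFc6 lists alone and 31 (21.7%) in the H1 and hESC-named lists alone. Over the windows of all protein-coding genes, these shares of 225106 loci were 12.4%, 34.2% and 40.7%.

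The genes differed among themselves in which line had more regions of its own. More HFFc6-only than H1-only ATAC regions were found for FOSL2 (13 against 5), JUN (9 against 3) and FOS (7 against 6), while 48.4% of protein-coding genes leaned this way. More H1-only regions were found for JUND (3 HFFc6-only against 8 H1-only), FOSL1 (4 against 7), JUNB (4 against 6) and FOSB (1 against 2), where the share over all genes was 41.1%. With 3 of 7 genes leaning to HFFc6 and 4 of 7 to H1, the family had no common direction. The 5th and 95th percentiles of all genes were −9 and 9 regions of difference, and all 7 genes fell between them. A difference at least as high as that of FOSL2 (8) was held by 7.79% of genes and that of JUN (6) by 14.2%, and one at least as low as that of JUND (−5) by 15.0%. The difference stayed between 2 and 11 for FOSL2, 0 and 10 for JUN and −8 and 0 for JUND over 7 other settings of overlap, window and peak strength, while those of FOS, FOSB, FOSL1 and JUNB changed sign under at least 1 of them.

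**Figure D2:**
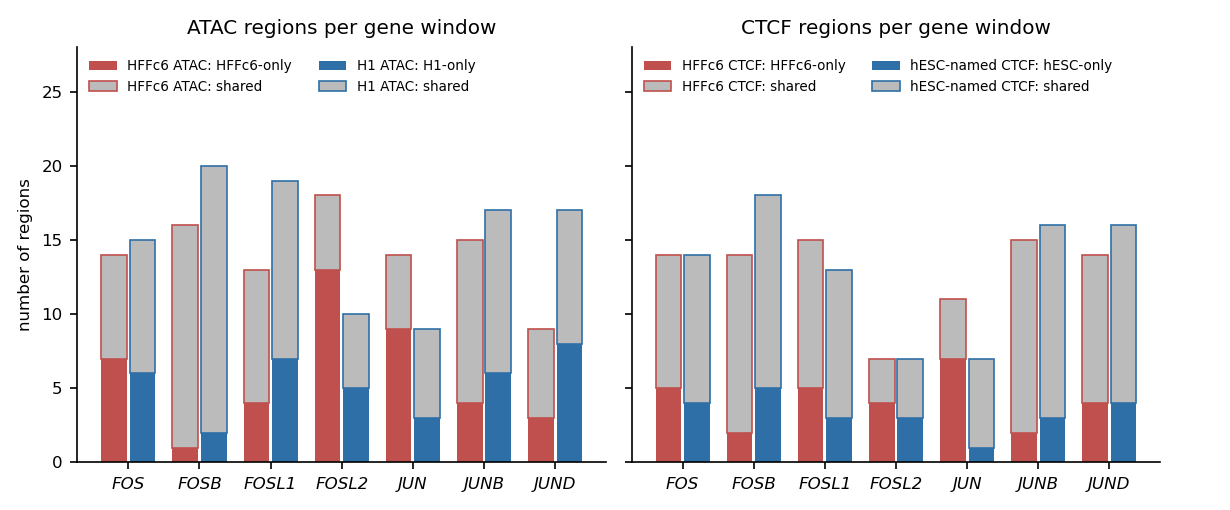
Number of regions in each gene window (gene body plus 50 kb on each side) for ATAC (left) and CTCF (right), with the HFFc6 bar left of the H1 or hESC-named bar. The filled part is list-specific and the grey part shared. FOSL2 and JUN have the tallest filled HFFc6 parts (13 and 9 ATAC regions), JUND the tallest filled H1 part (8), and FOSB almost none for ATAC (1 and 2).

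**Figure D3:**
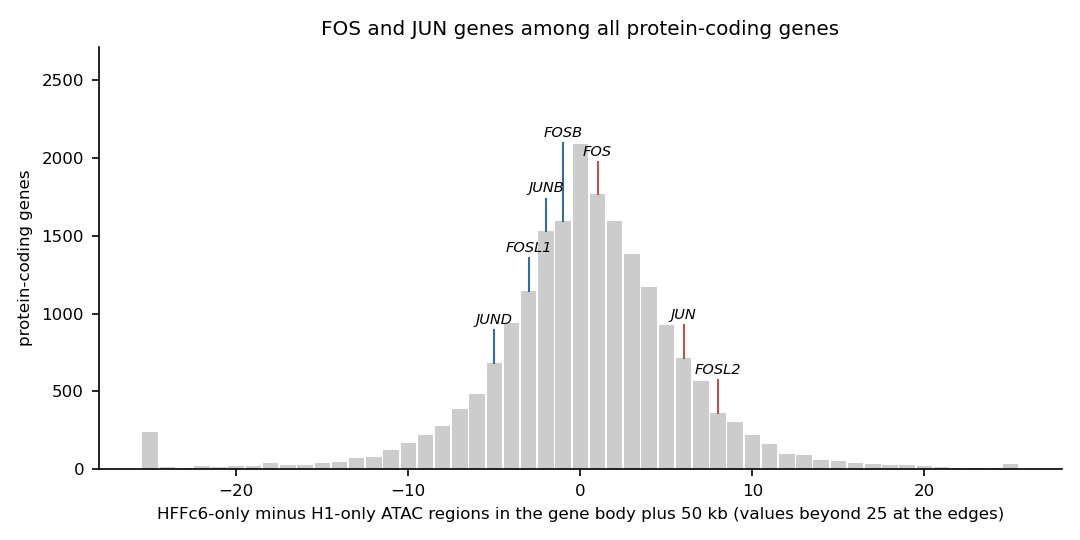
Number of protein-coding genes (y axis) by HFFc6-only minus H1-only ATAC regions in the gene window (x axis, in regions, with values beyond 25 placed at the edges). The FOS and JUN genes are marked at −5 (JUND) to 8 (FOSL2), all within the bulk of the 19970 genes.

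FOS had 14 HFFc6 and 15 H1 ATAC regions, of which 7 and 6 were list-specific. It was the only protein-coding gene in its window (chr14:75228828-75332230). The strongest HFFc6-only region, chr14:75266741-75267830, lay 11.6 kb upstream with fold enrichment 16.8, in the top 4.22% of its list. Another one 44.2 kb upstream had fold enrichment 16.1, and one of 1972 bp, 4.9 kb downstream of the start and just past the gene, had 3.67. These 3 of the 7 HFFc6-only regions also carried an HFFc6-only CTCF region. H1 had its own strong regions 44.1 kb and 9.5 kb downstream, with fold enrichments 13.0 and 12.7, and 5 of its 6 list-specific regions overlapped the hESC-named CTCF list. The strongest shared region lay about 19.6 kb upstream, with fold enrichment 16.2 in HFFc6 and 16.5 in H1, and it was in both CTCF lists. FOS combined shared elements with a distinct set in each list on both sides of the gene.

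FOSB had the most uniform window for ATAC. Of its HFFc6 and H1 ATAC regions, 15 of 16 and 18 of 20 were shared, and 13 of its 18 loci were in all 4 lists. Where at least 50% of a region had to be covered, 9 of the HFFc6 regions were HFFc6-only and 3 of the H1 regions H1-only. The 72.2% of loci in all 4 lists stood beside 12.4% over all windows, and no locus was in HFFc6 lists alone. For CTCF, 2 of 14 regions were HFFc6-only and 5 of 18 hESC-only. The window (chr19:45417996-45525179) also holds ERCC1, RTN2, PPM1N and VASP, and only 3 of the 16 HFFc6 and 3 of the 20 H1 ATAC regions had FOSB as the nearest protein-coding start. The strongest shared region lay 17.5 kb downstream of the start, with fold enrichment 17.1 in HFFc6 and 18.3 in H1. A CTCF region 31.6 kb downstream in PPM1N (chr19:45499410-45499929), hESC-only by the 1 bp rule, had fold enrichment 14.3 and overlapped an H1-only ATAC region. An HFFc6-only CTCF region (chr19:45498433-45499408, fold enrichment 2.97) ended just before it and overlapped the same H1-only ATAC region. Once merged, this stretch was among the loci in all 4 lists.

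FOSL1 had 4 HFFc6-only regions among 13 and 7 H1-only regions among 19. Its window (chr11:65842049-65950545) is crowded, with 10 other protein-coding genes, and 2 HFFc6 and 3 H1 ATAC regions had FOSL1 as the nearest start. The strongest HFFc6-only region lay 41.0 kb beyond the high-coordinate end, with fold enrichment 8.3, and the one nearest to the gene lay 2.7 kb beyond that end with 5.11. Of the 4 HFFc6-only regions, 3 carried HFFc6 CTCF, and these CTCF regions were HFFc6-only too. The strongest H1-only region, in TSGA10IP 45.1 kb beyond the same end, had fold enrichment 11.9 and carried an hESC-only CTCF region.

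FOSL2 had the largest number of HFFc6-only ATAC regions of the family, 13 of 18, while 5 of 10 regions were H1-only. At a −log10 q of at least 10 it had 7 HFFc6-only regions, fewer than the 9 of JUN, and by nearest start both had 8. No other protein-coding gene lies in its window (chr2:28342858-28467317), which holds 5 lncRNA genes, among them FOSL2-AS1. The HFFc6-only regions were spread from 50.2 kb upstream of the start to 72.7 kb downstream. From 53.3 kb downstream onwards, their nearest protein-coding start was that of PLB1, which lies beyond the window. The strongest HFFc6-only regions were chr2:28445640-28446658, 53.3 kb downstream with fold enrichment 12.4, and one 36.6 kb upstream with 11.1. Those were the 2 of the 13 with HFFc6 CTCF, and others were weak, such as one inside the gene 3.7 kb from the start with fold enrichment 1.54. None of the 5 H1-only regions overlapped the hESC-named CTCF list, and the strongest of them, 14.7 kb upstream, had fold enrichment 9.01. Among the hESC-named CTCF regions of this window, the highest fold enrichment, 21.8, belonged to an hESC-only region, chr2:28396727-28397379, inside FOSL2 4.2 kb from its start. It stood in the top 4.79% of that list. It touched the weak HFFc6 ATAC region at 3.7 kb and no H1 ATAC region. The cells of the hESC-named list may not be H1, so whether CTCF and open chromatin differed there within 1 line was not tested.

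JUN leaned to HFFc6 in both assays. It had 9 HFFc6-only ATAC regions of 14 against 3 H1-only of 9, and 7 HFFc6-only CTCF regions of 11 against 1 hESC-only of 7. Within 20 kb of the gene body the ATAC counts were even, at 2 and 2, and the CTCF counts were 2 and 0. More HFFc6-only than hESC-only CTCF regions were found in 36.8% of protein-coding genes, and a difference of at least 6, as at JUN, in 5.18%. JUN had no other protein-coding gene in its window (chr1:58730791-58834047), which holds 5 lncRNA genes including the divergent JUN-DT. The strongest HFFc6-only ATAC region was chr1:58755112-58756052, 28.4 kb downstream of the start, with fold enrichment 17.2, −log10 q 1640 and a place in the top 3.41% of the list. An HFFc6-only CTCF region with fold enrichment 13.9, in the top 4.62% of its list, lay within it. A 2361 bp HFFc6-only region 20.7 kb downstream had fold enrichment 9.94 and held 2 HFFc6-only CTCF regions. Upstream, in JUN-DT, HFFc6-only ATAC regions 25.5, 34.2 and 46.1 kb from the start had fold enrichments 8.25, 2.95 and 10.3, and each carried an HFFc6-only CTCF region. In all, 6 of the 9 HFFc6-only ATAC regions had HFFc6 CTCF. The 3 H1-only regions, with fold enrichments 3.45, 4.51 and 7.67, had none from the hESC-named list. In all 4 lists were 3 of the 17 JUN loci (17.6%), beside 12.4% over all windows.

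JUNB had 4 HFFc6-only ATAC regions of 15 and 6 H1-only regions of 17, in a window (chr19:12741486-12843315) with 8 other protein-coding genes. JUNB was the nearest protein-coding start for 5 HFFc6 and 3 H1 ATAC regions, of which 2 were HFFc6-only and 0 H1-only. Beside the region at its start, the strongest HFFc6-only region lay 25.2 kb upstream, in HOOK2, with fold enrichment 9.76. An HFFc6-only CTCF region there had fold enrichment 14.2, in the top 3.98% of its list. A wide HFFc6-only region of 2525 bp, 8.8 kb upstream of JUNB and also in HOOK2, had 4.8 and no CTCF. The H1-only regions lay from 21.6 to 39.6 kb upstream and from 34.3 to 49.8 kb downstream, and 5 of the 6 carried hESC-named CTCF. The strongest, in RTBDN 34.3 kb downstream, had fold enrichment 10.4. A shared CTCF region over that stretch had 27 in the hESC-named list, in its top 1.01%. Among the loci of JUNB, 10 of 20 were in all 4 lists.

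JUND had 3 HFFc6-only ATAC regions of 9 and 8 H1-only regions of 17, the strongest lean to H1 in the family at this setting. It was the nearest protein-coding start for 4 of the 9 HFFc6 and 6 of the 17 H1 regions. Among those it had 2 HFFc6-only and 2 H1-only regions, and within 20 kb of the gene body 3 and 3. FOSB had the same difference within 100 kb (−8), as did FOSL1 and JUNB at a −log10 q of at least 10 (−2). The window (chr19:18229694-18331622) also holds PDE4C, CIST1, IQCN and LSM4. Of the H1-only regions, 5 lay in PDE4C, CIST1 or IQCN, downstream of JUND, and 6 of the 8 carried hESC-named CTCF. The strongest was 48.3 kb downstream, in PDE4C, with fold enrichment 10.2. The 3 HFFc6-only regions were weaker, with fold enrichments 2.1 inside the gene, 4.59 at 19.6 kb upstream and 2.91 at 18.4 kb downstream. CTCF did not share this lean, with 4 HFFc6-only and 4 hESC-only regions. The strongest CTCF region was shared, 47.0 kb upstream, and its fold enrichment was 10.2 for HFFc6 and 27.6 for the hESC-named list.

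**Figure D4:**
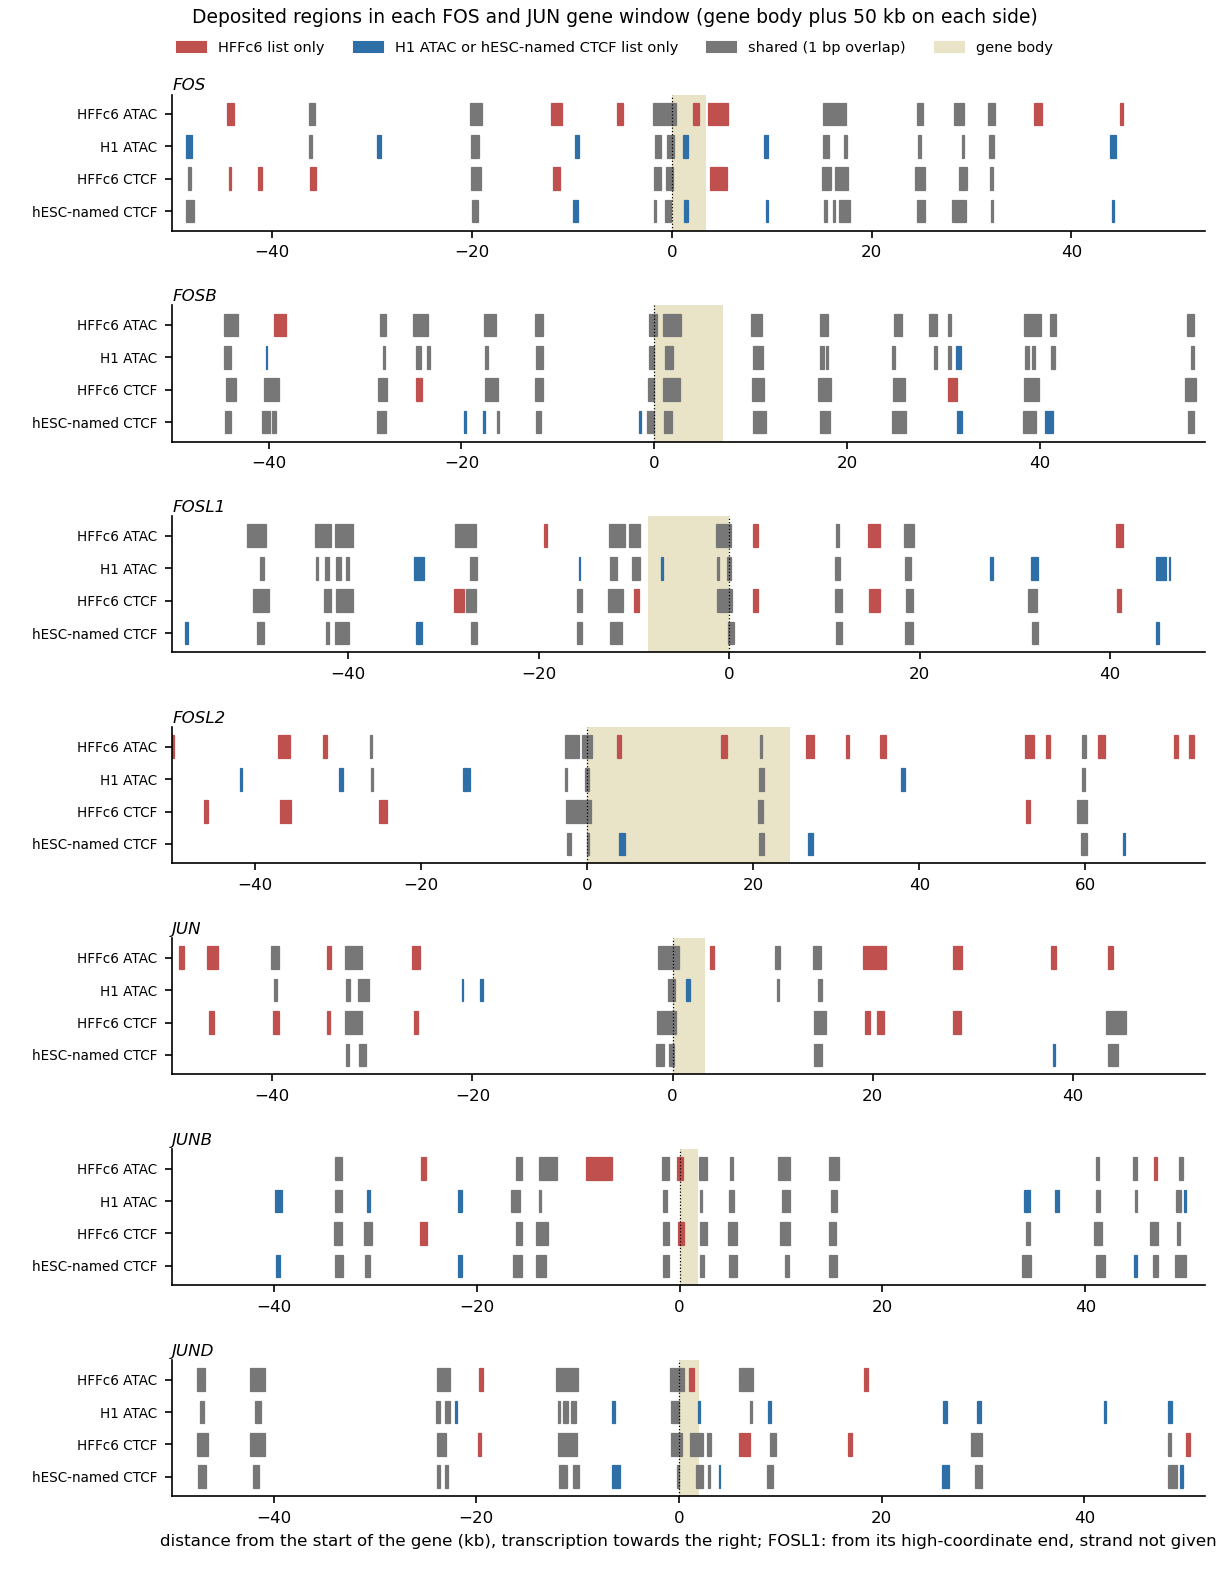
All regions in the window of each gene, 1 row per list, with distance from the gene start in kb on the x axis and transcription towards the right (for FOSL1, distance from the high-coordinate end). Red bars are HFFc6-only, blue bars H1-only or hESC-only, grey bars shared and the pale block is the gene body. FOSL2 and JUN show red bars on both sides of the gene, and the ATAC rows of FOSB are almost wholly grey, while its CTCF rows hold 2 red and 5 blue bars.

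FOS, FOSL2 and JUN, the 3 genes that lean to HFFc6, were also those with no other protein-coding gene in their windows. Together they had 29 HFFc6-only regions of 46 (63.0%) and 14 H1-only regions of 34 (41.2%). FOSB, FOSL1, JUNB and JUND, which have neighbours, had 12 of 53 (22.6%) and 23 of 73 (31.5%). Over all protein-coding windows 63.1% of HFFc6 and 61.8% of H1 ATAC regions were list-specific, so the first group was near the HFFc6 share over all windows and the second below it. This grouping was made after the values had been seen and gets no test. Over all genes the lean did not run that way: 43.3% of 2230 genes alone in their window had more HFFc6-only regions and 48.6% had more H1-only ones, against 49.1% and 40.2% of 17740 genes with neighbours.

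CTCF regions near the FOS and JUN genes mostly coincided with open chromatin. Of the HFFc6 CTCF regions, 76 of 90 (84.4%) overlapped an HFFc6 ATAC region, beside 84.5% in the windows of all protein-coding genes. In the hESC-named list, 74 of 91 (81.3%) overlapped an H1 ATAC region, beside 72.9%. Crosswise, 70.0% of HFFc6 CTCF regions overlapped an H1 ATAC region (53.1% over all windows), and 68.1% of hESC-named CTCF regions overlapped an HFFc6 ATAC region (46.9%). Read from the ATAC side, CTCF was found in 20 of 41 HFFc6-only regions (48.8%, Wilson interval 34.3 to 63.5), against 32.5% over all windows. It was found in 22 of 37 H1-only regions (59.5%, 43.5 to 73.7), against 33.8%. Shared regions carried CTCF in larger shares, with 53 of 58 (91.4%) for HFFc6 and 57 of 70 (81.4%) in H1, beside 73.4% and 67.6% over all windows. The genes differed here too: FOSL2 had CTCF in 2 of 13 HFFc6-only regions and in 0 of 5 H1-only ones, whereas JUND had it in 2 of 3 and 6 of 8.

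Companion genes of AP-1 were counted in the same windows. Among 12 bZIP partners, which can pair with FOS or JUN proteins, 6 had more HFFc6-only and 5 more H1-only ATAC regions, near the shares over all genes (48.4% and 41.1%). BATF3 had the highest difference, 7 (10 HFFc6-only against 3 H1-only). MAF, a large MAF factor, had the lowest, −38, with 0 HFFc6-only against 38 H1-only regions, although its start carried an ATAC region in both lists. Of 12 kinases and factors that act on FOS and JUN genes or proteins, 7 had more HFFc6-only and 2 more H1-only regions. MRTFB (20 against 13) and CREB1 (12 against 5) each had a difference of 7, and ELK1 (3 against 5) and MAPK3 (1 against 3) had the lowest, −2. All 12 had an ATAC region at the start in both lists, as did 13585 of 19970 protein-coding genes.

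The other immediate early genes, which respond to the same stimuli as FOS, were counted next. Of 11 genes, 8 had more HFFc6-only regions, beside 48.4% of all genes, while 1 leaned to H1 and 2 were even. Their median difference was 3, beside 0 over all genes. Within 20 kb of the gene bodies, 5 of the 11 had more HFFc6-only regions, near the 44.3% of all genes. KLF6 was highest at 6 (12 against 6) and EGR2 lowest at −3 (3 against 6). All 11 starts had an ATAC region in both lists, beside 13585 of 19970 protein-coding genes. JUNB stood apart from them in the 1 kb count only, since at 2 kb it too had a start region in both lists. Of 12 AP-1 target genes, 6 had more HFFc6-only and 4 more H1-only regions, from CD44, a cell surface receptor, at 9 (17 against 8) to IL11 (5 against 10) and CCND1 (3 against 8) at −5. The starts of MMP1, a collagenase, and PLAUR, the urokinase receptor, carried an ATAC region in the HFFc6 list alone, and that of MMP13 in the H1 list alone. MMP1, MMP3, MMP10 and MMP13 are neighbours on the chromosome, so their windows may share regions.

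The genes whose window counts were most like the median of the family were CPT1C, NEU1, CPNE7, LMAN1L and SLC34A1. Likeness was the Euclidean distance over 6 counts of shared and list-specific ATAC and CTCF regions, each as log2 of the count plus 1. Their distances ran from 0.193 (CPT1C) to 0.342 (SLC34A1). The family's own distances were 0.458 for FOSL1, 0.613 for JUND, 0.807 for FOS, 1.0 for JUNB, 2.13 for FOSL2, 2.14 for JUN and 2.28 for FOSB. These genes made the median, and the 5 others were picked as nearest to it, so neither set of distances is a result.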

How the data were processed

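The series held 22 libraries in 6 groups, and the lists used here came from 12 of them plus the hESC-named CTCF list. Per the submitters' processing notes, the tools were MACS2, BWA and bedtools, and the build was hg38. Tool versions, read filters, how replicates were joined and any Tn5 offset were not found in the labels. The authors' score per peak was left aside. As fold enrichment, the authors deposited the ratio that the peak caller gives at the summit. The −log10 q-value deposited by the authors is likewise the peak caller's own, and the lowest per list was 1.3 or 1.31. Read depth is unknown from peak lists.

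Chromosomes 1 to 22 and X were used. Gene bodies came from RefSeq (GRCh38.p14), without exons, for 19970 protein-coding genes. Starts came from the RefSeq promoter table for 15811 of them, and either end was used for the others, FOSL1 among them. Background shares at starts are over the 15811. The members and the companion and marker lists were chosen with earlier results of these data known. Named regions are those of highest fold enrichment per gene, list and class and the one at the start; further regions were named after their values were seen. Named companion genes are the highest and lowest of each list, and those with a start region in 1 line alone, except 1 gene that is not reported here. Python 3.11.15, numpy 2.4.6, pandas 2.3.3, scipy 1.17.1 and matplotlib 3.10.9 were used. Counting steps were tested on simulated lists, with 0 disagreements with a direct comparison. Whether libraries came from separate cultures is not stated. A motif search at peak summits had been planned and was left out, since it needs genome sequence that was not used here.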

Additional observations from a re-analysis of the deposited data

How the results depend on the processing

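Of the summary results, 77 values under alternatives stayed within the limits set and 29 moved. Shares of list-specific regions over all windows are given for the main setting only, so those below have no matching background. With an overlap of at least 50% of the region, 70 HFFc6 ATAC regions (70.7%) and 45 HFFc6 CTCF regions (50%) were HFFc6-only, and CTCF lay in ATAC for 73.3% of the HFFc6 and 60.4% of the hESC-named regions. HFFc6 regions were wider at the median in both assays, and whether width made this change was not tested. With 500 bp around summits, 49.5% of H1 ATAC regions were H1-only, 75.6% of HFFc6 CTCF regions lay in ATAC, and 1 start (FOS) had an ATAC region in H1 alone. Windows of 20 kb gave 19 HFFc6-only and 13 H1-only (25.5%) ATAC regions, 12 HFFc6-only and 10 hESC-only CTCF regions, 91.3% of HFFc6 CTCF in ATAC, and 5 immediate early genes leaning to HFFc6. Windows of 100 kb gave 67 and 73 ATAC and 50 and 53 CTCF regions. Regions nearest to the start of their own FOS or JUN gene were HFFc6-only in 52.8% of the ATAC list, with 17 H1-only ATAC, 18 HFFc6-only CTCF and 9 hESC-only CTCF regions. Within 2 kb of the start, 0 genes had an ATAC region and 0 a CTCF region in HFFc6 alone. At a −log10 q of at least 10, 2 starts (JUNB and FOSL2) had CTCF in HFFc6 alone, and 10 bZIP partners and 11 AP-1 targets leaned to HFFc6, where 68.6% of all genes did.

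Of the single-gene differences, 14 changed sign. For ATAC these were FOSB (6 at 50% overlap and 1 at the q limit), FOSL1 (3 at 50% overlap and 1 within 20 kb), FOS (−1 around summits) and JUNB (2 within 20 kb and 2 by nearest start). For CTCF they were FOSB (1 at the q limit), JUNB (1 at the q limit, within 20 kb and by nearest start), FOS (−1 within 20 kb) and FOSL2 (−2 within 20 kb and −1 within 100 kb). FOSL2 stayed between 2 and 11 for ATAC over 7 alternatives, JUN between 0 and 10 and JUND between −8 and 0. The cause was not tested. Lists of equal length were among the 7. Leaving out a library could not be run, because each list is 1 call for its group. No paired analysis was possible because the lists hold no values per library. Depth per library is unknown and limits every count.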

Other observations

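The AP-1 site found at the FOSL2 start led to a count over all promoters, chosen after that match was seen. Of the 15811 promoters, 910 held TGANTCA, and 117 of them (12.9%, Wilson interval 10.8 to 15.2) had an ATAC region within 1 kb of the start in HFFc6 alone. Without the site the share was 639 of 14901 (4.29%, 3.97 to 4.63). An ATAC region in H1 alone was found at 8.9% of promoters with the site and at 8.42% without it, and a region in both lists at 47.8% with it and 70.7% without it. The same HFFc6-alone share was 8.86% with and 4.35% without TATAAA, 1.95% with and 4.86% without TGACGTCA, and 2.3% with and 8.27% without GGGCGG. Counts are over genes of 1 pair of lists, the intervals cover counting error only, and JUNB, the FOS or JUN gene with an HFFc6-alone start, held no AP-1 site.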
